A study of Mus musculus with 9 samples.

Results

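The genes described here are 10 genes of xenobiotic metabolism in the liver, 3 receptors that sense foreign compounds (Ahr, Nr1i3, and Nr1i2), 6 cytochrome P450 genes (Cyp1a1, Cyp1a2, Cyp2a4, Cyp2a5, Cyp2e1, and Cyp2f2), and Por, the gene of the reductase that feeds electrons to the P450 enzymes. They form a named set that was chosen with earlier results of these data known, and a level above 0 in at least 1 liver was required. All 10 met this, out of 23183 gene symbols in the tables, of which 16889 were above 0 in at least 1 liver.

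Cytochrome P450 enzymes of the endoplasmic reticulum of hepatocytes oxidize drugs, dietary plant compounds, steroids, and fatty acids, and receive their electrons from the reductase encoded by Por. Their genes are switched on by ligand-activated transcription factors: the aryl hydrocarbon receptor (Ahr) with its partner Arnt acts on CYP1 genes, while the constitutive androstane receptor (CAR, gene Nr1i3) and the pregnane X receptor (PXR, gene Nr1i2) act with the retinoid X receptor on CYP2B, CYP2C, and CYP3A genes. Other P450 genes, such as Cyp2e1 and Cyp2f2, are expressed in the liver without an inducer, many of them in a zone of the lobule near the central vein or near the portal tract.

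Poly(A)-selected RNA from the livers of 9 male mice of the inbred strain C57BL/6J was sequenced, with 1 library per mouse and 3 mice per group. All mice were labelled postnatal day 100. The ND mice (numbers 6, 7, and 9) ate a normal diet with 14% fat, and the HFD mice (numbers 1, 2, and 3) a high-fat diet with 60% fat, both for 10 weeks. The PRF 50 mice (numbers 3, 9, and 10) ate the same high-fat diet and received 50 mg/kg per day of PRF by mouth, suspended in carboxymethyl cellulose, for the last 5 weeks. PRF is a hexane fraction of Jinkyool (Citrus sunki) leaf rich in polymethoxyflavones, plant flavonoids that include tangeretin and nobiletin. Whether the ND and HFD mice were given the carrier alone is not given in the sources used here. A number that occurs in more than 1 group does not mark the same or a matched animal.

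The deposited values were read as log2(FPKM + 1), where FPKM counts fragments per kilobase of transcript at a common depth, and values given below without a unit are on this scale. Between 14372 and 14980 genes were above 0 in a liver. The number of reads behind each value is unknown, because no count table was used. Relative to HFD mouse 1, the depth estimated from low values was 1.17 and 1.59 in HFD mice 2 and 3, between 1.06 and 1.15 in the ND mice, and 0.981, 1.51, and 0.963 in PRF 50 mice 3, 9, and 10. HFD mouse 2 stood apart in a small nuclear RNA, Rnu6, whose value of 22.44 was the highest of that library. The liver label was checked against 10 hepatocyte genes, all of which reached a mean of 1 FPKM in every comparison. Transthyretin (Ttr) lay between 11.97 and 12.84 and apolipoprotein A1 (Apoa1) between 12.69 and 13.50. Albumin (Alb) was listed at 0 in all 9 livers, so an exact 0 in these tables was not taken as absence of a transcript.

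On the FPKM scale, which allows genes to be compared per length, the mean over the 9 livers placed Cyp2e1 first at 4928 FPKM. Cyp2a5 (759 FPKM), Cyp2f2 (467 FPKM), and Cyp1a2 (244 FPKM) followed, then Por at 142 FPKM. This order does not hold in every group, since Por was above Cyp1a2 in each of the 3 HFD livers (group means 152 FPKM and 128 FPKM). The receptors were lower, with 46.6 FPKM for Nr1i3, 25.6 FPKM for Nr1i2, and 7.91 FPKM for Ahr. Cyp2a4 (1.60 FPKM) and Cyp1a1 (0.305 FPKM) had the lowest levels. The mean of Cyp2a4 comes mostly from the HFD group, and in ND and PRF 50 its group means of 0.315 FPKM and 0.158 FPKM were below those of Cyp1a1 (0.357 FPKM and 0.358 FPKM). Summed over the 6 P450 genes, the level was 8232, 6235, and 5137 FPKM in the ND mice, 7551, 5489, and 6864 FPKM in the HFD mice, and 5542, 6220, and 6327 FPKM in the PRF 50 mice. The sums of the groups overlapped. Cyp2e1 supplied 69.5% to 73.5% of this sum in the ND mice, 79.0% to 85.5% in the HFD mice, and 75.9% to 80.8% in the PRF 50 mice, so that its share was lowest in the 3 ND livers.

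**Figure D1:**
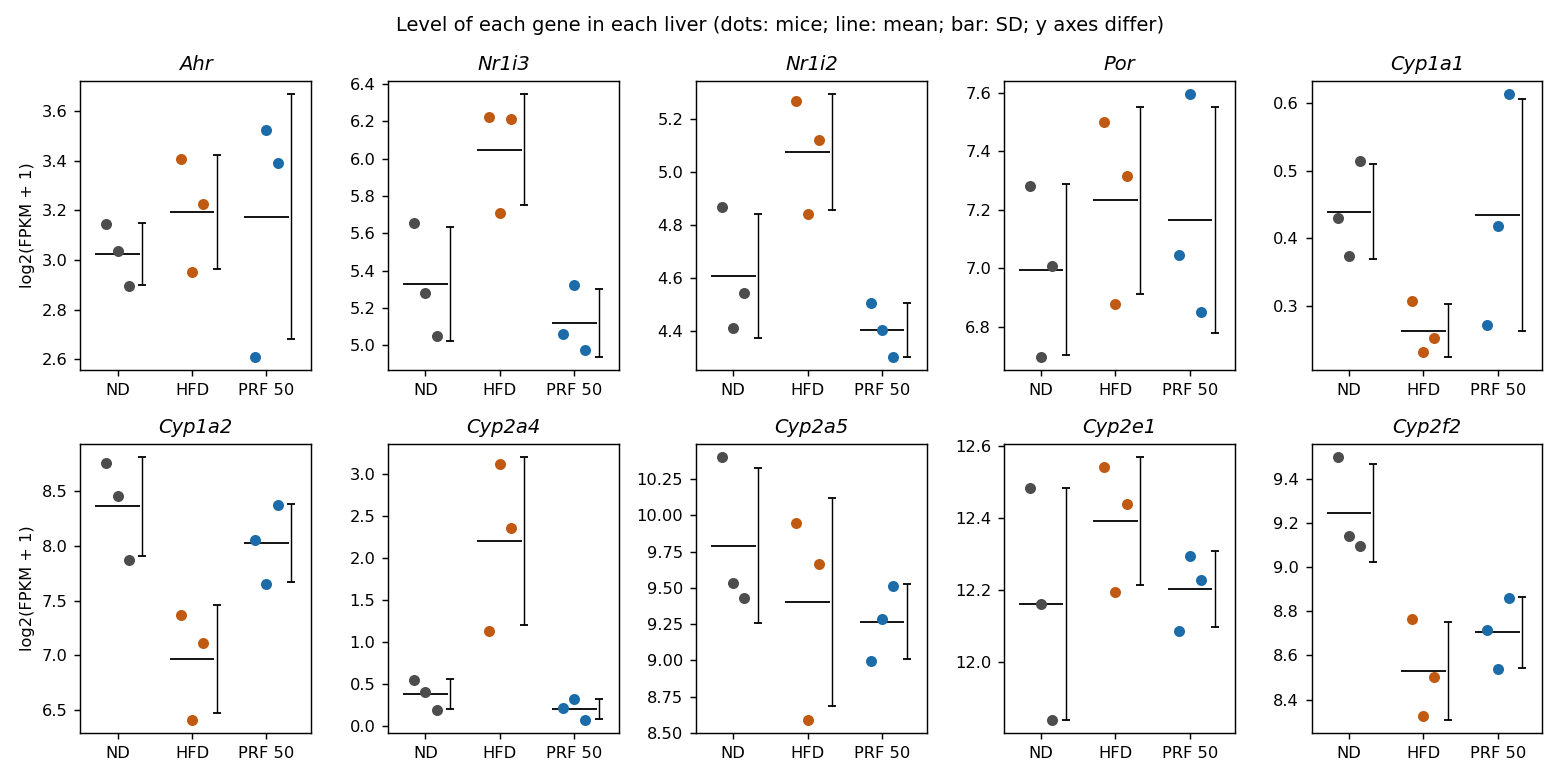
Level of each of the 10 genes in each liver on the log2(FPKM + 1) scale, with 1 panel per gene and its own vertical axis; dots are mice, horizontal lines are group means, and bars are SD (n = 3). By group mean, Nr1i3, Nr1i2, Cyp2a4, Ahr, Por, and Cyp2e1 were highest in the HFD group, and Cyp1a2, Cyp1a1, and Cyp2f2 were lowest there. The groups overlapped for Ahr, Por, Cyp2e1, and Cyp2a5.

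Differences between 2 groups were tested with limma, a linear model with a variance estimate shared across genes, where the mean over the 6 mice compared reached 1 FPKM. A gene was called when its p-value adjusted over all tested genes by the Benjamini-Hochberg method was under 0.05. The comparison of PRF 50 vs. HFD asks what the fraction did on the high-fat diet. There, 2 of the 9 tested genes were called by limma, both lower, and 0 were called higher, while of all 10084 tested genes 3.59% were called, 1.43% higher and 2.16% lower. An unadjusted p under 0.05 was reached by 4 of the 9, against 20.2% of all genes. The groups did not overlap for 4 of the 9 (1 higher and 3 lower), against 26.2% of all tested genes (10.9% higher and 15.3% lower).

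The comparison of HFD vs. ND asks what the diet did. Of its 9 tested genes, limma called 0, against 1.33% of all 9978 tested genes (0.702% higher and 0.631% lower). An unadjusted p under 0.05 was reached by 5 of the 9, against 15.1% of all genes. The groups did not overlap for 4 of the 9 (2 higher and 2 lower), against 20.7% of all genes (10.7% higher and 10% lower).

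For PRF 50 vs. ND, limma called 0 of 8 tested genes, against 0.458% of all 10051 tested genes (0.159% higher and 0.298% lower). Only Cyp2f2 reached an unadjusted p under 0.05, against 12.5% of all genes. It was also the 1 tested member without overlap, against 19.9% of all genes (8.19% higher and 11.8% lower).

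The study names thresholds of p under 0.05 and a change of more than 2-fold, without saying whether p was adjusted. As a stand-in for them, the unadjusted limma p was taken here together with the fold. This p and fold criterion was met by 2 members in HFD vs. ND (1 higher and 1 lower), against 1.34% of all genes (0.692% higher and 0.651% lower). It was met by 2 members in PRF 50 vs. HFD (1 higher and 1 lower), against 2.1% of all genes (1.06% higher and 1.04% lower). Cyp2a4 is 1 of the members counted in both. It is also among those with an unadjusted p under 0.05 and among those without overlap in both comparisons. Cyp2a4 reached the minimum level only through the HFD group, where it is highest, so its part in all these counts is no support for a difference. The p and fold criterion was met by 0 members in PRF 50 vs. ND by limma, where 1 had an unadjusted p under 0.05, against 1.76% of all genes (1.04% higher and 0.716% lower). Each group enters 2 of these comparisons, so that the comparisons are not independent of each other. The median log2 difference of all tested genes was -0.01 in HFD vs. ND, -0.02 in PRF 50 vs. HFD, and -0.03 in PRF 50 vs. ND.

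**Figure D2:**
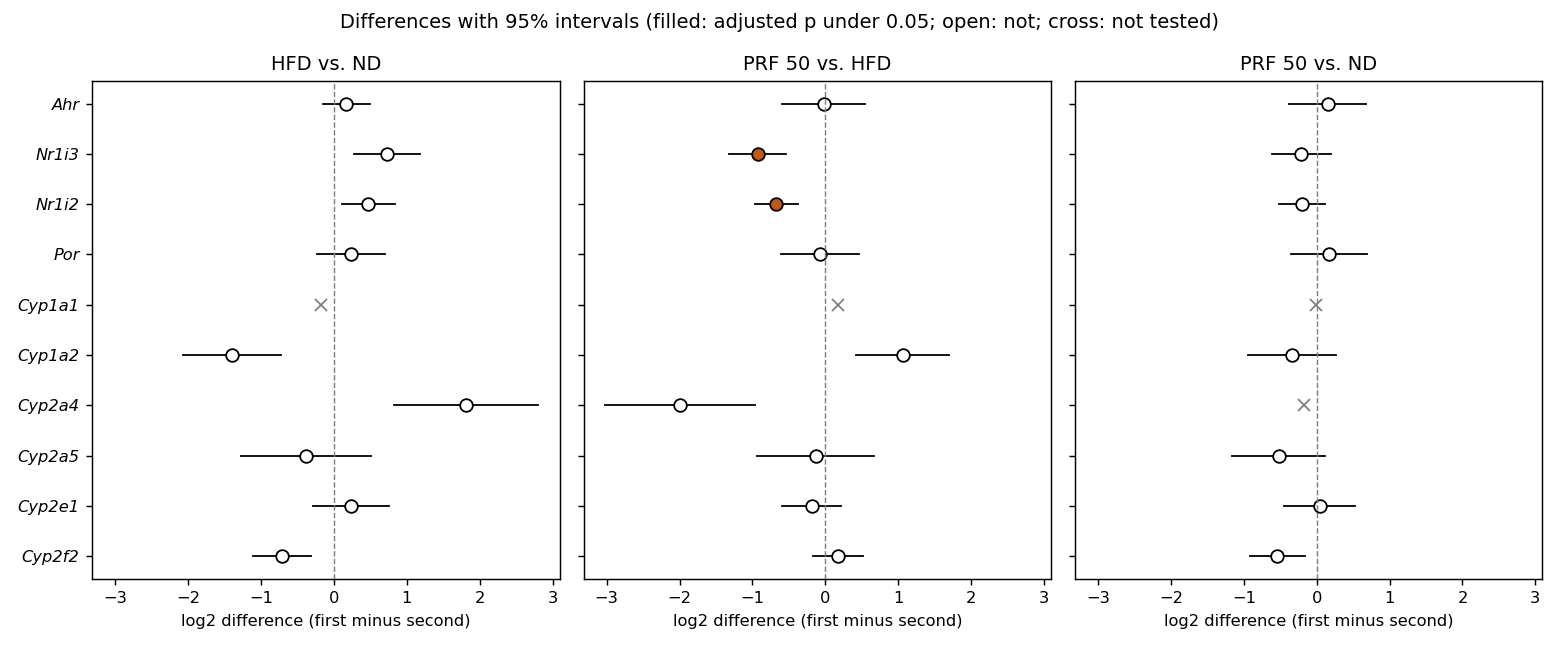
Difference between group means on the log2 scale (first group minus second) for each gene in the 3 comparisons, with 95% confidence intervals from limma; filled circles had an adjusted p under 0.05, open circles did not, and crosses mark genes under the minimum level, which were not tested. Nr1i3 and Nr1i2 in PRF 50 vs. HFD are the only filled circles.

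The receptors of the nuclear receptor family were the genes called. Nr1i3, which encodes CAR, lies on chromosome 1 (GRCm38, chr1:171213970-171220701, plus strand). It was at 5.65, 5.28, and 5.05 in ND mice 6, 7, and 9, at 6.23, 5.71, and 6.22 in HFD mice 1, 2, and 3, and at 5.06, 5.32, and 4.97 in PRF 50 mice 3, 9, and 10. The 3 HFD livers were above all the others, and the ND and PRF 50 livers overlapped. The group means were 5.33 ± 0.31 in ND, 6.05 ± 0.30 in HFD, and 5.12 ± 0.18 in PRF 50 (SD, n = 3). Nr1i3 fell by 0.93 in PRF 50 vs. HFD (standard error 0.17, 95% confidence interval -1.32 to -0.54, limma adjusted p = 0.0336), a 1.91-fold lower level. In HFD vs. ND, the difference of 0.72 (95% confidence interval 0.27 to 1.17, limma adjusted p = 0.148) did not pass the threshold.

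Nr1i2, which encodes PXR, lies on chromosome 16 (GRCm38, chr16:38248323-38294824, minus strand). Its values were 4.87, 4.41, and 4.54 in the ND mice, 5.27, 4.84, and 5.12 in the HFD mice, and 4.51, 4.40, and 4.30 in the PRF 50 mice, in the same order of mice as before. All HFD livers were above all PRF 50 livers, while ND mouse 6 was just above HFD mouse 2. The group means were 4.61 ± 0.23 in ND, 5.08 ± 0.22 in HFD, and 4.40 ± 0.10 in PRF 50 (SD, n = 3). Nr1i2 fell by 0.67 in PRF 50 vs. HFD (standard error 0.12, 95% confidence interval -0.97 to -0.38, limma adjusted p = 0.0369), a 1.59-fold lower level. The difference of 0.47 in HFD vs. ND was not called (95% confidence interval 0.11 to 0.83, limma adjusted p = 0.226).

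Both calls were near the threshold and depended on single mice. Nr1i2 was not called when any 1 of the 6 mice was left out, with log2 differences between -0.79 and -0.58 and adjusted p-values between 0.0572 and 0.124 from limma. Nr1i3 was not called without HFD mouse 1, HFD mouse 3, PRF 50 mouse 3, or PRF 50 mouse 10 (limma adjusted p = 0.0732, 0.115, 0.0951, and 0.0760). Its log2 difference lay between -1.10 and -0.84 whichever mouse was left out. In whole liver RNA, a lower level can come from fewer cells of a type or from less RNA per cell, and these cannot be told apart. Another cell type differed between the same groups: of 8 Kupffer cell and macrophage markers, 8 rose in PRF 50 vs. HFD, against 1.43% of all tested genes. None was listed at 0 in all livers, and Cd5l was the most abundant. The summed level of these markers was 61.3, 115, and 150 FPKM in the ND mice, 74.3, 123, and 127 FPKM in the HFD mice, and 372, 257, and 266 FPKM in the PRF 50 mice. The count of 8 was 0 without HFD mouse 3 or PRF 50 mouse 3, 1 without HFD mouse 2, and 3 without PRF 50 mouse 10. The comparison of PRF 50 vs. ND had 0 of the 8 called by limma, while 8 had an unadjusted p under 0.05 and 8 did not overlap, with a median log2 difference of 1.34, against 1.39 in PRF 50 vs. HFD. The part of these markers in the result was not tested. Of the 10 hepatocyte markers, limma called 0 in each of the 3 comparisons, with 2 at an unadjusted p under 0.05 in HFD vs. ND, 3 in PRF 50 vs. HFD, and 0 in PRF 50 vs. ND. Limma also called, in PRF 50 vs. HFD, 0 of 6 tested endothelial markers and 0 of 6 tested stellate cell markers, with 1 and 2 at an unadjusted p under 0.05. Of 5 cholangiocyte markers only 1 was tested there and was not called, and none of 6 lymphocyte markers reached the minimum level in any comparison.

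The windows before the transcription starts of these genes are shown because they are the members that were called together. They were taken from RefSeq (GRCm38.p6), and each is 250 bases long, 5′ to 3′ on the strand of the gene. The set of windows used here held an entry for 9 of the 10 genes, all but Ahr. Capitals mark the E-box CACGTG, which was found in the Nr1i3 window 244 bases before the start. The Nr1i3 window is chr1:171213720-171213969 (plus strand) and the Nr1i2 window is chr16:38294825-38295074 (minus strand). Neither overlapped an annotated exon.
Nr1i3: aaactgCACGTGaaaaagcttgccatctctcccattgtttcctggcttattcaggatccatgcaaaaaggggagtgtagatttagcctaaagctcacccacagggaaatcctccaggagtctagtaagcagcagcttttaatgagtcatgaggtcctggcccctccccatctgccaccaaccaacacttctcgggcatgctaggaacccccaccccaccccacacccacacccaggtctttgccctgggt
Nr1i2: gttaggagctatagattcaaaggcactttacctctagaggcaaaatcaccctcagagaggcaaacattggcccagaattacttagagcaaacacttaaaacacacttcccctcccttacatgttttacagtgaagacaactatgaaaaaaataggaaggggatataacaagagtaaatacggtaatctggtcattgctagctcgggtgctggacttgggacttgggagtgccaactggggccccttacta
The letters searched on both strands were CACGTG, the nuclear receptor half-site AGGTCA, the core GCGTG of AHR and ARNT binding, TTATGTAA of PAR bZIP factors, and the TATA box TATAAA. The Nr1i2 window held none of them, and the Nr1i3 window held only the E-box, which 6.02% of the 32851 windows of all genes also held. A match of letters is a description and not a binding site. Among the other 7 members with a window, GCGTG was found before Cyp1a1 and Por (28.2% of all windows), AGGTCA before Cyp2f2 (14% of all windows), and TATAAA before Cyp1a1, Cyp1a2, Cyp2a4, Cyp2a5, and Cyp2e1 (12.4% of all windows). Of these windows, all but that of Cyp1a1 overlapped an annotated exon of the same gene. TATAAA lay past the first exon base for Cyp1a2, Cyp2a5, and Cyp2e1 and reached it for Cyp2a4. The GCGTG matches of Por 62 and 24 bases before the start lay past it too.

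The genes whose profile over the 9 livers was most like that of Nr1i3 were Acadm, Ech1, and Osbpl5. Acadm and Ech1 encode enzymes of fatty-acid oxidation. The root-mean-square difference between the centred profiles was 0.13 for Acadm and 0.18 for both Ech1 and Osbpl5 on the log2 scale, out of 10047 genes compared. Acadm had group means of 7.49 in ND, 8.05 in HFD, and 7.24 in PRF 50.

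The partners of CAR and PXR and other regulators of these genes were a list of 17 genes with the retinoid X receptors, coactivators and corepressors, and liver transcription factors. Limma called 0 of 17 in each comparison. An unadjusted p under 0.05 was found for 5 of them in HFD vs. ND, 4 in PRF 50 vs. HFD, and 1 in PRF 50 vs. ND. Rxra, the common partner of both receptors, lay between 6.40 and 6.72 in all 9 livers. Its values in all PRF 50 livers were above those in all ND and HFD livers. Its log2 difference was 0.18 in PRF 50 vs. HFD (95% confidence interval -0.03 to 0.38, limma adjusted p = 0.321).

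Of 24 genes known to respond to CAR or PXR in mouse liver, 20 were tested in PRF 50 vs. HFD. Of these, 7 fell and 0 rose, against 2.16% and 1.43% of all tested genes. The median log2 difference of the 20 was -0.66, against -0.02 for all genes. In HFD vs. ND, 22 were tested, 3 fell, and 2 rose (0.631% and 0.702% of all genes), with a median of -0.35. In PRF 50 vs. ND, 20 were tested, 6 fell, and 0 rose (0.298% and 0.159% of all genes), with a median of -0.89. Some of these genes reached the minimum level through 1 group alone: Cyp2b13 and Abcb1a through HFD, and Cyp2b10 and Cyp2c55 through ND. Their directions were fixed by this, and they are part of the counts or medians of the list. The counts depended on single mice. The 7 became 1 without PRF 50 mouse 3, 2 without HFD mouse 2 or 3, and 3 without HFD mouse 1 or PRF 50 mouse 9 or 10. The 6 became 0 without ND mouse 7, 2 without ND mouse 6 or PRF 50 mouse 3 or 9, and 10 without ND mouse 9. The 2 that rose in HFD vs. ND became 1 without ND mouse 6, ND mouse 7, or HFD mouse 2.

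Cyp3a11, the main inducible CYP3A gene of mouse liver, was at 11.78, 11.70, and 11.30 in the ND mice, 9.12, 8.81, and 9.04 in the HFD mice, and 7.60, 6.51, and 8.07 in the PRF 50 mice. The 3 groups did not overlap, with ND highest and PRF 50 lowest. Cyp3a11 fell by 2.60 in HFD vs. ND (limma adjusted p = 0.0012) and by 4.20 in PRF 50 vs. ND (limma adjusted p = 0.00684), while the difference of -1.60 in PRF 50 vs. HFD was not called (limma adjusted p = 0.0610). Without ND mouse 7, the adjusted p of PRF 50 vs. ND was 0.0683 from limma.

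Cyp2b10, the classic target of CAR, was at 1.94, 1.73, and 0.95 in the ND mice, 0.26, 0.12, and 0.39 in the HFD mice, and 0.20, 0.09, and 0.14 in the PRF 50 mice. All ND livers were above all others, and the HFD and PRF 50 levels were too low to be tested against each other. It was tested against ND only because of its ND level (mean 2.03 FPKM, against 0.196 FPKM in HFD and 0.106 FPKM in PRF 50), so the differences of -1.28 in HFD vs. ND and -1.39 in PRF 50 vs. ND are a description. Among the listed targets, Cyp2b10 and Cyp3a11 had their highest group mean in ND, and others, such as Cyp2b9 and Aldh1a1, in HFD, as Nr1i3 had. A relation of these levels to that of Nr1i3 was not tested.

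Cyp2b9 and Cyp2b13 followed another order. Cyp2b9 was at 2.84, 1.08, and 0.66 in the ND mice, 6.57, 7.14, and 7.41 in the HFD mice, and 1.70, 0.88, and 0.55 in the PRF 50 mice. It rose by 5.52 in HFD vs. ND (limma adjusted p = 0.00419) and fell by 6.00 in PRF 50 vs. HFD (limma adjusted p = 0.000458). Both genes are also known as female-biased in mouse liver and stand in the list of such genes below. The other genes that fell in PRF 50 vs. HFD were Cyp3a25 (-0.67), Abcc3 (-0.998), Abcb1a (-0.75), Aldh1a1, and Ephx1, where the values are log2 differences. Of these calls, those of Abcb1a, Aldh1a1, and Ephx1 were lost without any 1 of the 6 mice, that of Cyp3a25 without HFD mouse 2, HFD mouse 3, or PRF 50 mouse 3, that of Abcc3 without any mouse but HFD mouse 2, and that of Cyp2b13 without HFD mouse 2 or any 1 PRF 50 mouse. The calls of Cyp2b9 were kept in both comparisons without any 1 mouse. Abcc3 and Abcb1a encode export pumps. In PRF 50 vs. ND, Abcc3 (-1.09), Cyp2c55 (-2.05), Cyp3a25 (-1.001), Slco1a4 (-1.38), and Ces2a (-1.62) fell as well, each without a call when ND mouse 7 was left out.

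**Figure D3:**
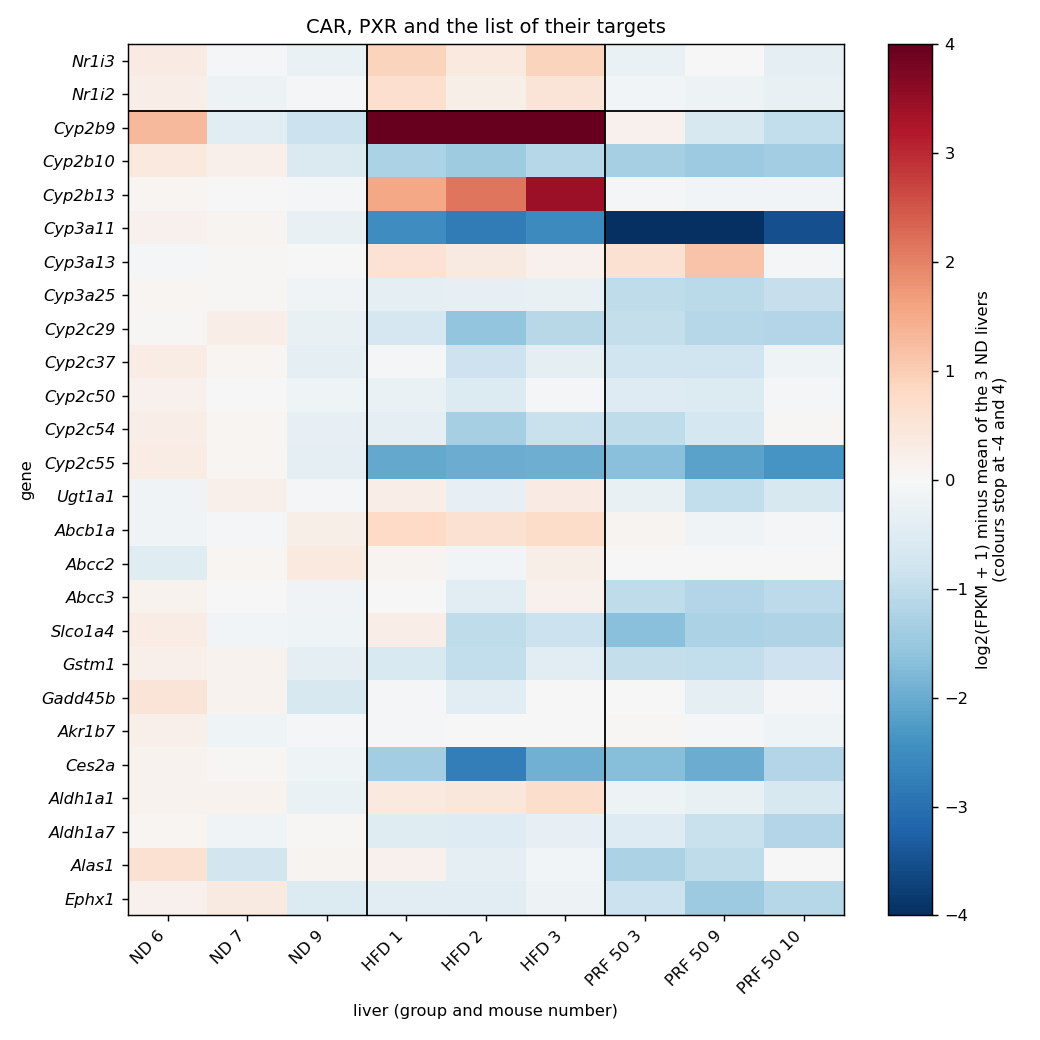
Level of Nr1i3, Nr1i2, and the 24 listed CAR and PXR targets in each liver, as log2(FPKM + 1) minus the mean of the 3 ND livers; red is above and blue below that mean, and colours stop at -4 and 4. Cyp2b9 and Cyp2b13 are red in the 3 HFD livers, and Cyp3a11, Cyp2c55, and Ces2a are blue in the 3 HFD and 3 PRF 50 livers.

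Ahr lies on chromosome 12 (GRCm38, chr12:35497974-35535038, minus strand). It was at 3.14, 3.03, and 2.89 in the ND mice, 3.41, 2.95, and 3.23 in the HFD mice, and 2.61, 3.52, and 3.39 in the PRF 50 mice. The groups overlapped, and the PRF 50 group held both the lowest and the highest value. Means were 3.02 ± 0.13 in ND, 3.19 ± 0.23 in HFD, and 3.17 ± 0.49 in PRF 50 (SD, n = 3). The 95% confidence intervals from limma were -0.15 to 0.49 in HFD vs. ND, -0.59 to 0.55 in PRF 50 vs. HFD, and -0.38 to 0.68 in PRF 50 vs. ND. Of 12 listed partners and targets of AHR, limma called 0 in each comparison, with 8, 7, and 8 tested in HFD vs. ND, PRF 50 vs. HFD, and PRF 50 vs. ND, and 2 at an unadjusted p under 0.05 in each. These were, in HFD vs. ND, Tiparp and Nqo1, both higher without overlap, with log2 differences of 0.40 and 0.58 (limma unadjusted p = 0.0169 and 0.0106). Nqo1 and Ugt1a6a were the genes in PRF 50 vs. HFD, both lower (-0.56 and -0.41, limma unadjusted p = 0.00648 and 0.0343), and Nqo1 did not overlap. Ugt1a6a and Gsta1 were lower in PRF 50 vs. ND, where Gsta1 was tested only because of its ND level. The partner Arnt overlapped in all 3 comparisons. The targets Ahrr and Cyp1b1 had values of at most 0.15 and 0.23 and were not tested.

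Cyp1a1 and Cyp1a2, the CYP1A genes that AHR acts on, are neighbours on chromosome 9 with 4224 bases between them (GRCm38, chr9:57687928-57703824, plus strand, and chr9:57676937-57683703, minus strand). Cyp1a1 was at 0.43, 0.37, and 0.51 in the ND mice, 0.31, 0.23, and 0.25 in the HFD mice, and 0.27, 0.42, and 0.61 in the PRF 50 mice. All values were under 1 FPKM, and the gene was not tested in any comparison. The HFD livers were below the ND livers, and the PRF 50 livers overlapped both groups, with means of 0.44 ± 0.07 in ND, 0.26 ± 0.04 in HFD, and 0.43 ± 0.17 in PRF 50 (SD, n = 3).

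Cyp1a2, which is expressed in the liver without an inducer, was at 8.76, 8.46, and 7.87 in the ND mice, 7.36, 6.41, and 7.11 in the HFD mice, and 8.05, 7.66, and 8.37 in the PRF 50 mice. The 3 HFD livers were below the other 6, and the ND and PRF 50 livers overlapped. The group means were 8.36 ± 0.45 in ND, 6.96 ± 0.49 in HFD, and 8.03 ± 0.36 in PRF 50 (SD, n = 3). The difference was -1.40 in HFD vs. ND (95% confidence interval -2.07 to -0.72, limma adjusted p = 0.0762) and 1.06 in PRF 50 vs. HFD (95% confidence interval 0.42 to 1.70, limma adjusted p = 0.0853). Neither passed the adjusted threshold, while both met the p and fold criterion. With quantile normalization, Cyp1a2 was called in HFD vs. ND (-1.39, limma adjusted p = 0.0364). The profiles most like Cyp1a2 were those of H2-Q7, H2-Q9, and Igfbp2, with root-mean-square differences of 0.27, 0.30, and 0.30 on the log2 scale.

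Cyp2a4 and Cyp2a5 are near-identical genes on chromosome 7, with 520216 bases between them (GRCm38, chr7:26307169-26315088 and chr7:26835305-26843548, both on the plus strand). They encode a steroid hydroxylase and a coumarin hydroxylase. Their coding sequences were identical at 1459 of 1482 positions (98.4%). Of the 100-base stretches of this sequence, 13.2% had no difference between the genes and 81.4% had at most 2, and a read from a stretch without a difference fits both genes. The sequences before their starts are shown because the genes differed in level and in pattern while these windows were almost alike. They are from RefSeq (GRCm38.p6), end before the first annotated exon, and lie at chr7:26306942-26307158 for Cyp2a4 and chr7:26835089-26835304 for Cyp2a5, both on the plus strand. Capitals mark the bases that differ.
Cyp2a4: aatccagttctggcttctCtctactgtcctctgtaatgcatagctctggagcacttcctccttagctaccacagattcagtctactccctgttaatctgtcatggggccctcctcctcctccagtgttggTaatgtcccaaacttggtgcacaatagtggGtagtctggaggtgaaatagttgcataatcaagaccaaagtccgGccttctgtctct
Cyp2a5: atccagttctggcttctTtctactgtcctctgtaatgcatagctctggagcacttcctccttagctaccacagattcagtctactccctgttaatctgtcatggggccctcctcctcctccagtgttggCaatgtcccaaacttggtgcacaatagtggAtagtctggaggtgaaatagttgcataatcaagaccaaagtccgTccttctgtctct
The differences were C19T, T131C, G161A, and G205T, with the base of Cyp2a4 first and positions counted from 1 at the 5′ end of the Cyp2a4 sequence. Over the 249 aligned bases of the full windows, 4 differed (98.4% identical).

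Cyp2a4 was at 0.55, 0.41, and 0.20 in the ND mice, 1.14, 3.12, and 2.36 in the HFD mice, and 0.22, 0.32, and 0.08 in the PRF 50 mice. The 3 HFD livers were above all others and differed among themselves, with HFD mouse 1 nearest to the other groups. Means were 0.39 ± 0.18 in ND, 2.21 ± 0.998 in HFD, and 0.21 ± 0.12 in PRF 50 (SD, n = 3). Cyp2a4 reached the minimum of 1 FPKM only through the HFD group (mean 4.34 FPKM, against 0.315 FPKM in ND and 0.158 FPKM in PRF 50). A gene that passes in this way has to differ, so its values are a description. The log2 difference was 1.82 in HFD vs. ND (95% confidence interval 0.83 to 2.81) and -2.00 in PRF 50 vs. HFD (95% confidence interval -3.03 to -0.97), and limma called neither (adjusted p = 0.107 and 0.0563). On this scale the difference of a gene near 0 is understated, and with a pseudocount of 0.1 in place of 1 it was -3.84 in PRF 50 vs. HFD. Cyp2a4 was called in that comparison with this pseudocount, with all 9 mice in 1 fit, and without HFD mouse 1 (limma adjusted p = 0.0314, 0.0272, and 0.0094). In HFD vs. ND it was called without HFD mouse 1 (limma adjusted p = 0.00786). The dependence on the HFD level holds for these calls too, which are no support for a difference.

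Cyp2a5 was at 10.40, 9.54, and 9.43 in the ND mice, 9.95, 8.59, and 9.66 in the HFD mice, and 8.997, 9.29, and 9.52 in the PRF 50 mice. The groups overlapped in every pair, with means of 9.79 ± 0.53 in ND, 9.40 ± 0.72 in HFD, and 9.27 ± 0.26 in PRF 50 (SD, n = 3). The differences were -0.39 in HFD vs. ND (95% confidence interval -1.28 to 0.50), -0.13 in PRF 50 vs. HFD (-0.93 to 0.66), and -0.52 in PRF 50 vs. ND (-1.16 to 0.11), with none called by limma. HFD mouse 2, with the lowest Cyp2a5 value, had the highest Cyp2a4 value, and without it the difference in HFD vs. ND was 0.02.

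Summed over both genes, the level was 1355, 742, and 689 FPKM in the ND mice, 990, 392, and 814 FPKM in the HFD mice, and 510, 624, and 731 FPKM in the PRF 50 mice, and the groups overlapped. Cyp2a4 made up 0.0342%, 0.0449%, and 0.0214% of the sum in the ND mice, 0.121%, 1.96%, and 0.508% in the HFD mice, and 0.0326%, 0.0404%, and 0.00776% in the PRF 50 mice. The share was higher in each HFD liver than in any other liver. Since it was at most 1.96%, a small part of the Cyp2a5 reads assigned to Cyp2a4 would change the Cyp2a4 level, and the part of such reads was not tested.

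**Figure D4:**
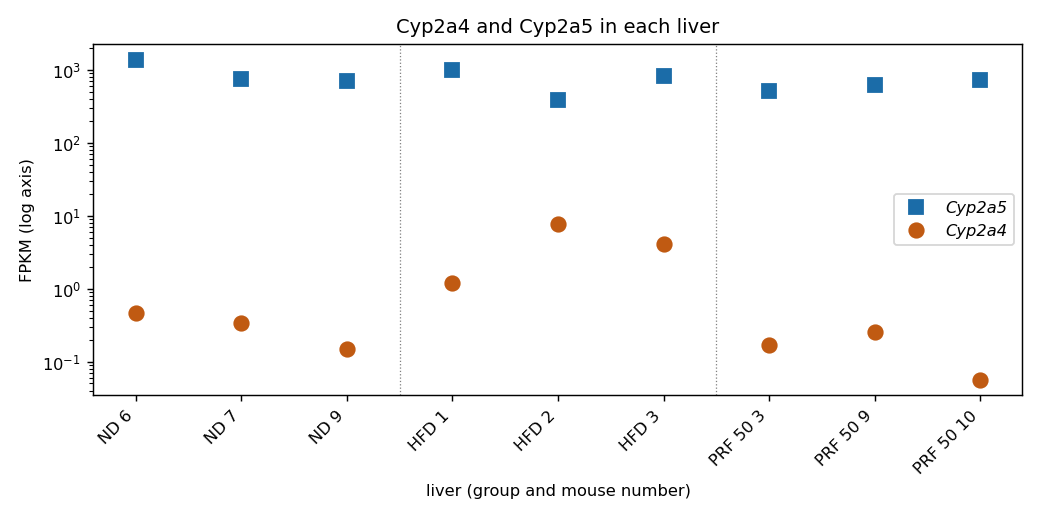
FPKM of Cyp2a4 (circles) and Cyp2a5 (squares) in each of the 9 livers on a log axis, with dotted lines between the groups. Cyp2a4 lies between 1.20 and 7.67 FPKM in the HFD livers and at most at 0.464 FPKM in the others, while Cyp2a5 lies between 384 and 1354 FPKM in all 9.

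Cyp2a4 is a female-biased gene of mouse liver. Of 12 listed female-biased genes, 8 were under the minimum level in HFD vs. ND and again 8 in PRF 50 vs. HFD. Of the 4 tested, 3 (Cyp2b9, Cyp2b13, and Acot3) rose in HFD vs. ND and fell in PRF 50 vs. HFD. Of all tested genes, 0.702% rose in HFD vs. ND and 2.16% fell in PRF 50 vs. HFD. Cyp2b13 was tested only because of its HFD level (mean 5.503 FPKM, against 0.0899 FPKM in ND and 0.0167 FPKM in PRF 50), which fixes the direction it can take. Cyp2b9 and Acot3 had means above 1 FPKM in all 3 groups. In HFD vs. ND, Acot3 was not called without ND mouse 7 or HFD mouse 3, and Cyp2b13 not without HFD mouse 2 or any 1 ND mouse.

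Of 12 male-biased genes, 6 of 11 tested fell in HFD vs. ND and 7 of 12 rose in PRF 50 vs. HFD. The shares of all tested genes were 0.631% and 1.43%. The 7 include Moxd1, which was tested only because of its PRF 50 level (mean 20.8 FPKM, against 0 in the 3 HFD livers and 0.113 FPKM in ND), so its direction was fixed in both comparisons with PRF 50. In HFD vs. ND, the calls of C6, Cyp7b1, and Selenbp2 were kept without any 1 mouse, while Gstp1, Hsd3b5, and Serpina1e were not called without ND mouse 6, ND mouse 7, or HFD mouse 2. Of the 7 genes called in PRF 50 vs. HFD, only C6 kept its call whichever mouse was left out, and the other 6 were not called without HFD mouse 3. Gstp1, a male-biased gene of glutathione conjugation, was at 10.67, 10.88, and 9.92 in the ND mice, 8.86, 8.47, and 8.56 in the HFD mice, and 10.78, 10.33, and 11.08 in the PRF 50 mice. Of the female-biased genes, limma called 0 of 3 tested in PRF 50 vs. ND, with 1 at an unadjusted p under 0.05, and 2 of 12 male-biased genes (C6 and Moxd1) rose there. At an unadjusted limma p under 0.05, 3 male-biased genes were higher and 3 were lower in PRF 50 vs. ND. C6 was not called there without ND mouse 6, ND mouse 7, or any 1 PRF 50 mouse, and Moxd1 not without ND mouse 6 or ND mouse 7. A relation of either list to Cyp2a4 was not tested.

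The profiles most like Cyp2a4 were those of Gpc1, Slc22a27, and Cd36, with root-mean-square differences of 0.34, 0.35, and 0.36 on the log2 scale. Cd36 encodes a fatty-acid transporter. Adipocyte markers were also highest in HFD mice 2 and 3, the livers with the most Cyp2a4. Of 4 such markers, Lep and Plin1 were listed at 0 in all 9 livers, Adipoq was above 0 only in HFD mice 2 and 3, and Cfd, the most abundant, was at 0.66, 2.87, and 3.85 in the HFD mice. Their summed level was 0.654, 1.01, and 1.58 FPKM in the ND mice, 0.583, 6.56, and 13.5 FPKM in the HFD mice, and 0.211, 0.609, and 0 FPKM in the PRF 50 mice. The part of adipocyte RNA in the Cyp2a4 level was not tested.

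Cyp2f2 lies 276360 bases from Cyp2a5 on chromosome 7 (GRCm38, chr7:27119909-27133660, plus strand) and encodes an enzyme of naphthalene oxidation that is found mainly near the portal tract. It was at 9.50, 9.14, and 9.09 in the ND mice, 8.76, 8.33, and 8.50 in the HFD mice, and 8.71, 8.54, and 8.86 in the PRF 50 mice. The ND livers were above all 6 livers of the mice on the high-fat diet, and the HFD and PRF 50 livers overlapped. Means were 9.24 ± 0.22 in ND, 8.53 ± 0.22 in HFD, and 8.71 ± 0.16 in PRF 50 (SD, n = 3). The difference was -0.71 in HFD vs. ND (95% confidence interval -1.11 to -0.32, limma adjusted p = 0.114) and -0.54 in PRF 50 vs. ND (95% confidence interval -0.91 to -0.17, limma adjusted p = 0.225). Neither was called, though quantile normalization gave a call in HFD vs. ND (-0.61, limma adjusted p = 0.0318). Of 12 listed periportal genes, limma called 0 in each comparison, while 8 had an unadjusted p under 0.05 in HFD vs. ND, 6 with a lower and 2 with a higher mean. The median log2 difference of the 12 genes was -0.28 in HFD vs. ND, 0.21 in PRF 50 vs. HFD, and -0.20 in PRF 50 vs. ND. The profiles most like Cyp2f2 were those of Gcat, Ube2s, and B3gnt9, with root-mean-square differences of 0.09, 0.11, and 0.11 on the log2 scale.

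Cyp2e1, which oxidizes ethanol and acetaminophen near the central vein, lies on chromosome 7 (GRCm38, chr7:140763739-140774987, plus strand). Its values were 12.48, 12.16, and 11.84 in the ND mice, 12.54, 12.20, and 12.44 in the HFD mice, and 12.09, 12.29, and 12.23 in the PRF 50 mice. The groups overlapped, with means of 12.16 ± 0.32 in ND, 12.39 ± 0.18 in HFD, and 12.20 ± 0.11 in PRF 50 (SD, n = 3). The 95% confidence intervals of the differences were -0.29 to 0.76 in HFD vs. ND, -0.59 to 0.22 in PRF 50 vs. HFD, and -0.45 to 0.53 in PRF 50 vs. ND. Of 12 pericentral genes, limma called 0 in HFD vs. ND and PRF 50 vs. ND, with 2 at an unadjusted p under 0.05 in each, and 1 (Aldh1a1) fell in PRF 50 vs. HFD. Glul, which marks the cells at the central vein, lay between 8.59 and 9.04.

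Of 16 other CYP1 and CYP2 genes, 12 were tested in each comparison. Cyp2j5 fell in PRF 50 vs. HFD (log2 difference -0.42, limma adjusted p = 0.0469), and no other gene of the list was called in any comparison. An unadjusted p under 0.05 was found for 4 genes in HFD vs. ND and for 3 in PRF 50 vs. ND. Cyp2j5 was not called when any 1 of the 6 mice was left out. Cyp2a12, a member of the Cyp2a cluster with less similar sequence, lay between 8.15 and 8.86 with overlapping groups.

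Por, the reductase gene (GRCm38, chr5:135670033-135735326, plus strand), was at 7.28, 6.70, and 7.01 in the ND mice, 7.50, 6.88, and 7.32 in the HFD mice, and 7.04, 7.60, and 6.85 in the PRF 50 mice. The groups overlapped, with means of 6.99 ± 0.29 in ND, 7.23 ± 0.32 in HFD, and 7.16 ± 0.39 in PRF 50 (SD, n = 3). The differences had 95% confidence intervals of -0.23 to 0.71 in HFD vs. ND, -0.60 to 0.47 in PRF 50 vs. HFD, and -0.35 to 0.69 in PRF 50 vs. ND. Of 8 other genes of electron transfer to P450 enzymes, 1 was called, Pgrmc2, which fell in PRF 50 vs. HFD (log2 difference -0.52, limma adjusted p = 0.0322). Pgrmc2 was not called when any 1 of the 6 mice was left out. Cyb5a, the electron donor cytochrome b5, lay between 10.56 and 11.24 and was not called in any comparison. Of 12 genes of haem synthesis and breakdown, limma called 0 in each comparison, with 1, 2, and 3 genes at an unadjusted p under 0.05 in HFD vs. ND, PRF 50 vs. HFD, and PRF 50 vs. ND. Alas1, the first enzyme of haem synthesis and also a CAR and PXR target, lay between 6.42 and 8.29.

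Many P450 genes follow the time of day. Dbp, a PAR bZIP factor with a strong daily rhythm, lay between 5.79 and 6.58 with overlapping groups. The time of day of collection is not given in the sources used here.

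**Figure D5:**
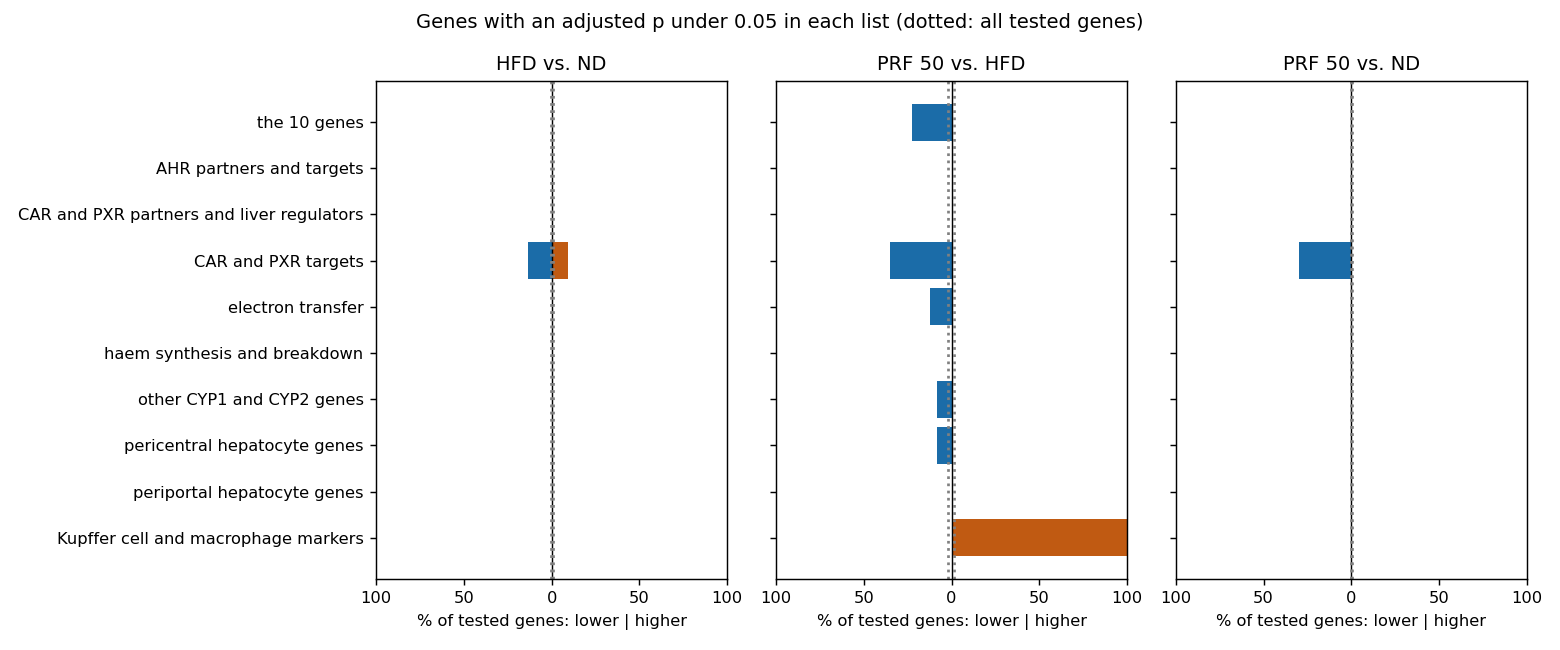
Share of the tested genes of each list that limma called higher (right, orange) or lower (left, blue) in each comparison, in percent, with dotted lines at the share of all tested genes. The list of CAR and PXR targets has bars in all 3 comparisons, and the Kupffer cell and macrophage markers reach 100% in PRF 50 vs. HFD.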

How the data were processed

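The deposited liver RNA-Seq values of all 9 mice were used. According to the authors, reads were trimmed (FASTX_Trimmer, BBMap) and mapped with TopHat, to mm10 per the submitters' processing notes; Cufflinks gave FPKM, and a geometric normalization with EdgeR followed. Versions of these tools and the annotation are not given in the sources used here. The authors deposited 1 log2 value per gene symbol and mouse, taken as log2(FPKM + 1); a lowest value of 0 is the ground for the pseudocount of 1.

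Each comparison was fitted with limma (version 3.58.1; lmFit, eBayes with a trend) in R (version 4.3.3) without covariates, on genes whose mean FPKM over its 6 mice reached 1, with Benjamini-Hochberg adjustment. The steps were tested on simulated data. Members and lists were chosen with earlier results of these data known. Genes named were the members, called list genes (up to 5 per list and comparison by p), defining genes of the lists, and the 3 nearest profiles of members spanning over 1; Aldh1a1, Ephx1, Ttr, Apoa1, Alb, Rnu6, and the adipocyte markers were named after their values were seen. Positions are from GENCODE M21.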

Additional observations from a re-analysis of the deposited data

How the results depend on the processing

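No paired analysis was possible because HFD and PRF 50 share only the number 3, ND and PRF 50 only the number 9, and HFD and ND none, and the numbers name animals within a group. Of 337 results for the members under an alternative, 306 kept direction and side of the threshold, 13 calls were lost, 6 were gained, and 12 turned direction. Most of the 337 are for results that were not called. All 13 lost calls were those of Nr1i2 and Nr1i3 in PRF 50 vs. HFD, the only members called. The cause was not tested beyond the smaller number of mice or larger number of genes that some alternatives bring. Alternatives for the list counts and list genes were chosen after seeing the data; of 590 results for called list genes, 183 lost the call and 0 turned direction.

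Turned directions concerned genes not called, and the values are log2 differences. With quantile normalization Por was 0.0746 in PRF 50 vs. HFD. With a mouse left out, Cyp2a5 lay between -0.664 and 0.0164 in HFD vs. ND. In PRF 50 vs. HFD, Ahr lay between -0.196 and 0.262, Cyp2a5 between -0.540 and 0.141, and Por between -0.284 and 0.0883. In PRF 50 vs. ND, Ahr lay between -0.0258 and 0.432, Cyp2e1 between -0.118 and 0.202, and Por between -0.0476 and 0.325.

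Of the 2 members called lower in PRF 50 vs. HFD, 0 were called without a minimum level, 1 (Nr1i2) with quantile normalization, and 0 to 1 with a mouse left out; the 2 calls were kept with all 9 mice in 1 fit, a pseudocount of 0.1, a minimum of 10 FPKM, scaling by median-of-ratios factors, and eBayes without a trend. In HFD vs. ND, 2 members (Cyp1a2 and Cyp2f2) were called lower with quantile normalization, and 0 to 1 (Cyp2a4, tested only because of its HFD level) higher with a mouse left out; in PRF 50 vs. HFD Cyp2a4 was called with all 9 mice in 1 fit, a pseudocount of 0.1, and without HFD mouse 1.

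Among all tested genes, HFD vs. ND called 70 higher and 63 lower, against 22 and 15 without a minimum level, 46 higher with a minimum of 10 FPKM, and 17 to 80 higher and 17 to 60 lower with a mouse left out. PRF 50 vs. HFD called 144 higher and 218 lower, against 38 and 88 without a minimum, 49 higher with a minimum of 10 FPKM, 132 lower with quantile normalization (112 higher), and 4 to 94 higher and 11 to 148 lower with a mouse left out. PRF 50 vs. ND called 16 higher and 30 lower, against 53 and 54 with all 9 mice in 1 fit, 2 and 9 without a minimum, 8 higher with a minimum of 10 FPKM, and 1 to 39 higher and 3 to 36 lower with a mouse left out.

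CAR and PXR targets called higher in HFD vs. ND were 2, and 1 without a minimum and 1 with a minimum of 10 FPKM, 1 to 2 with a mouse left out; those called lower were 3, and 5 with all 9 mice in 1 fit. In PRF 50 vs. HFD 7 were lower, 2 without a minimum, 4 with quantile normalization, and 1 to 3 with a mouse left out. In PRF 50 vs. ND 6 were lower, 2 without a minimum, and 0 to 10 with a mouse left out. Of 8 Kupffer cell and macrophage markers higher in PRF 50 vs. HFD, 5 were called with all 9 mice in 1 fit, 2 without a minimum, 5 with a minimum of 10 FPKM, and 0 to 6 with a mouse left out; in PRF 50 vs. ND limma called 0 higher (8 at an unadjusted p under 0.05), 3 with all 9 mice in 1 fit and 0 to 2 with a mouse left out.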
